A study of Danio rerio with 43 samples.

Results

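Zebrafish embryos homozygous for the rif1 allele omf201 were compared with wild-type embryos at the shield stage, 6 hours post fertilisation, when gastrulation starts. The comparison takes the 4 mutant and the 3 wild-type libraries that the labels place at this stage, 7 of the 43 libraries analysed, and was described across all genes and by gene function. Both genotypes carry the strain label Tab5, every library came from a pool of whole embryos kept at the same temperature, and unfertilised or misshapen embryos had been taken out of the clutches before freezing. The mutant libraries are numbered 1, 2, 3 and 4 and the wild-type libraries 1, 3 and 4, and values are given in that order. The labels name neither the parents nor the clutch behind each library. Loss of maternal Rif1 and loss of the embryo's own Rif1 therefore cannot be told apart, and the p-values measure the spread between these libraries, which may be technical in part. The full study sampled both genotypes also at cleavage, blastula and bud stages and at 24 hpf.

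Rif1 is a chromosome-bound protein that brings protein phosphatase 1 to DNA, delays the firing of late replication origins and acts at telomeres and broken DNA. In fish embryos the cell cycle slows after the mid-blastula, the zygotic genome is switched on and maternal messages are cleared. By shield stage the blastoderm has spread over the yolk under a covering enveloping layer, the yolk syncytial layer signals from below, and the dorsal organizer opposes ventral BMP signals while Nodal signals induce mesoderm and endoderm.

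The libraries were made with QuantSeq, which primes on the poly(A) tail and reads each transcript near its 3′ end, so values do not depend on transcript length. Totals were 6311609 to 7232166 counts in mutants and 6969065 to 7717370 in wild type. Mutant libraries had counts in fewer genes, 12073 to 12867 against 13506 to 14010 in wild type, and their 10 most abundant genes took 10.1 to 10.7% of counts against 8.96 to 9.33%. The part of these gaps in the results was not tested. The first principal component, 33.1% of the variance, separated the genotypes, and the second, 18.8%, set mutant library 1 apart at 73.3, with the other mutants at -39.8 to -16.5 and wild type at -0.13 to 8.07. The gastrula genes gsc, chrd and noto were present in every library. The muscle regulator myod1 did not pass 5.90 CPM (counts scaled to the library's size) in any library and the neuronal gene elavl3 did not pass 2.75 CPM. Among other genes of later tissues, hbae3 reached 9.51 CPM in a wild-type library and sox10 reached 4.49 CPM in a mutant library.

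The targeted gene was lower in every mutant library. rif1 had 18.1, 15.4, 19.5 and 16.6 CPM in mutants, against 139, 121 and 99.7 CPM in wild type. The groups did not overlap, and the log2 fold change of mutant over wild type was -2.78 ± 0.18 (SE; edgeR quasi-likelihood test, adjusted p = 3.81e-10). The labels do not say where in the gene the omf201 lesion lies, so it is not known whether reads at the 3′ end would register it.

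Of 10751 genes with enough counts to test, 1044 differed between the genotypes at an adjusted p under 0.05 (9.71%), 501 higher (4.66%) and 543 lower (5.05%) in mutants. A change of at least 1 log2 unit, which is a fold of 2, was found for 444 genes (4.13%), of which 183 were higher and 261 lower. The genotypes' libraries did not overlap for 2386 genes (22.2% of those tested). With library totals in place of scaling factors the split was 403 higher and 658 lower, and in a single fit of all 12 groups of the series it was 375 higher and 874 lower. Leaving out mutant library 1 gave 561 higher and 575 lower. Leaving out wild-type library 1 left 622 calls and leaving out wild-type library 4 left 606.

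**Figure D1:**
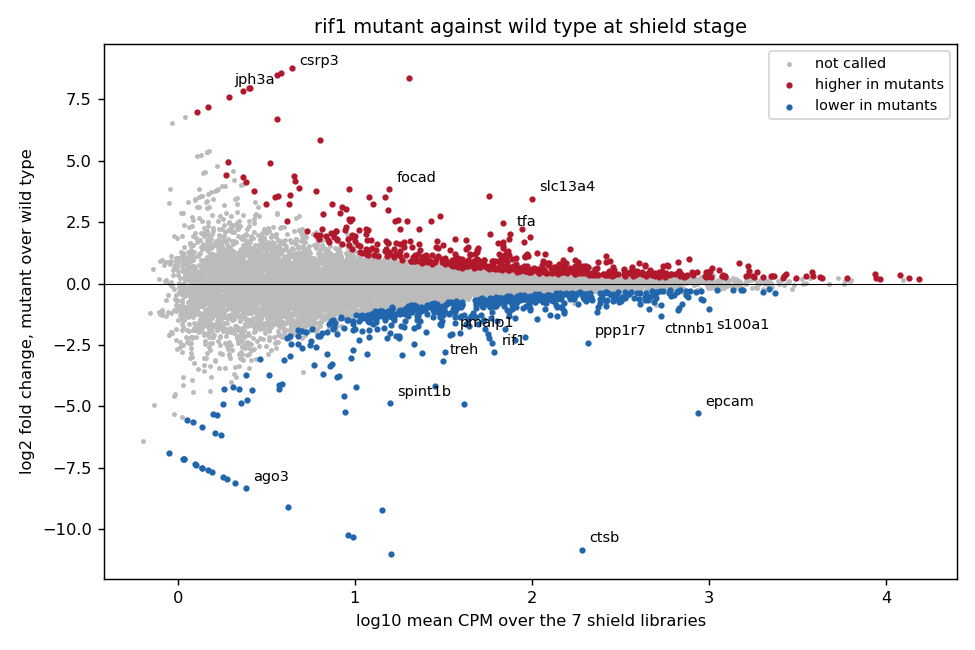
Log2 fold change of mutant over wild type (vertical axis) against the log10 of mean CPM over the 7 shield libraries (horizontal axis), with 1 point per tested gene. Red points are the 501 genes called higher in mutants, blue points the 543 called lower and grey points the rest; epcam and ctsb stand far below the other abundant genes.

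The deepest losses among abundant messages were those of an epithelial adhesion protein and a lysosomal protease. epcam encodes a membrane protein of epithelial contacts that the zebrafish enveloping layer uses during epiboly. It had 65.8, 38.2, 54.5 and 43.0 CPM in mutants, against 2049, 1860.0 and 1982 CPM in wild type, so that mutants held 2.57% of the wild-type mean (log2 fold change -5.28 ± 0.14, edgeR adjusted p = 2.50e-14). ctsb, which encodes cathepsin B, had 0.432, 0.321, 0.141 and 0 CPM in mutants, against 425, 499.5 and 412 CPM in wild type. Its log2 fold change was -10.83 ± 0.24 (edgeR adjusted p = 1.24e-19). In both genes each mutant library lay far under each wild-type library, but the rule that named them required no overlap between the genotypes.

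Other large falls concerned genes of lower abundance. spint1b encodes a Kunitz inhibitor of membrane serine proteases such as matriptase. It had 2.30, 1.44, 0.703 and 0.323 CPM in mutants, against 44.6, 32.0 and 29.4 CPM in wild type (log2 fold change -4.86 ± 0.44, edgeR adjusted p = 6.20e-08). The trehalose-splitting enzyme gene treh had 10.1, 7.86, 4.92 and 5.50 CPM in mutants, against 60.1, 66.7 and 63.8 CPM in wild type (-3.16 ± 0.26, edgeR adjusted p = 1.78e-08). The tropomyosin gene tpm4 had 0.432, 3.37, 0.562 and 0.485 CPM in mutants, against 13.6, 20.7 and 16.5 CPM in wild type. The rule that named these falls required no overlap between the genotypes, so their separation is not a result of its own. Mutant library 2 was the highest of the mutants for tpm4. The Argonaute gene ago3 had no count in any mutant library, against 9.10, 1.38 and 6.50 CPM in wild type, which is at least 12.4-fold lower on a floor of 3 counts per library. The finTRIM gene ftr90 (-5.24 ± 0.79) and the NEDD8 regulator nub1 (-3.36 ± 0.67) were also among the 12 largest falls, as were znf1048, pard3bb, adpgk and hid1b. The last 4 had few counts and lost their calls on leaving out some libraries: znf1048 without wild-type library 4 (adjusted p = 0.249), without mutant library 3 (0.0519) or without wild-type library 1 (0.0554); pard3bb without wild-type library 3 (0.081) or 4 (0.0878); adpgk without wild-type library 1 (0.0885); and hid1b without mutant library 4 (0.0632) or without wild-type library 1 (0.0743) or 4 (0.107). DESeq2 also did not call adpgk (adjusted p = 0.160) or hid1b (0.214).

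The strongest rises included an abundant message and messages with almost no count in wild type. slc13a4, a sulfate transporter gene, was the most abundant of the strong rises. It had 181, 160.2, 153 and 160.3 CPM in mutants, against 10.1, 18 and 16.4 CPM in wild type (log2 fold change 3.46 ± 0.19, edgeR adjusted p = 1.32e-11). An entry with the ribonucleotide reductase symbol rrm2, ENSDARG00000020711, which shares that symbol with another entry, had 39.3, 50.9, 20.8 and 30.4 CPM in mutants, against 0.128, 0 and 0.130 CPM in wild type. That is a ratio of 402, with a 95% interval for counting error in wild type of 111 to 3319 (edgeR adjusted p = 9.39e-10). All mutant libraries held the message and wild type held 1 read or none per library.

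The muscle LIM protein gene csrp3 had 7.78, 7.70, 4.36 and 11.2 CPM in mutants, against no count in wild type, at least 19.6-fold higher. The junctophilin gene jph3a had 7.92, 9.79, 6.89 and 2.26 CPM in mutants, against no count in wild type, at least 17-fold higher. focad, which encodes focadhesin, had 29.7, 29.0, 28.2 and 17.5 CPM in mutants, against 1.80, 0.689 and 2.86 CPM in wild type (3.85 ± 0.43, edgeR adjusted p = 1.97e-06). These genes were named by a rule that required no overlap between the genotypes, so the gap between the groups is not a result of its own. The other genes among the 12 largest rises included the steroid hydroxylase gene cyp17a1 (3.54 ± 0.57), the acylglycerol transferase gene mogat2 (3.84 ± 0.61), the fatty acid receptor gene cd36 (3.90 ± 0.83), the unconventional myosin gene myo1d (4.90 ± 1.07), the prolyl isomerase gene fkbp16, tmem97 and the tapasin gene tapbp.2 (3.53 ± 0.68). The list ends with ins and uqcrc2a. ins, the insulin gene, lost its call without mutant libraries 1 (adjusted p = 0.0675), 2 (0.0813) or 3 (0.0815) and without wild-type libraries 1 (0.106) or 3 (0.0907). uqcrc2a, a subunit gene of respiratory complex III, lost it without mutant libraries 3 (0.0706) or 4 (0.0793) and without wild-type libraries 1 (0.0838) or 4 (0.0802).

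**Figure D2:**
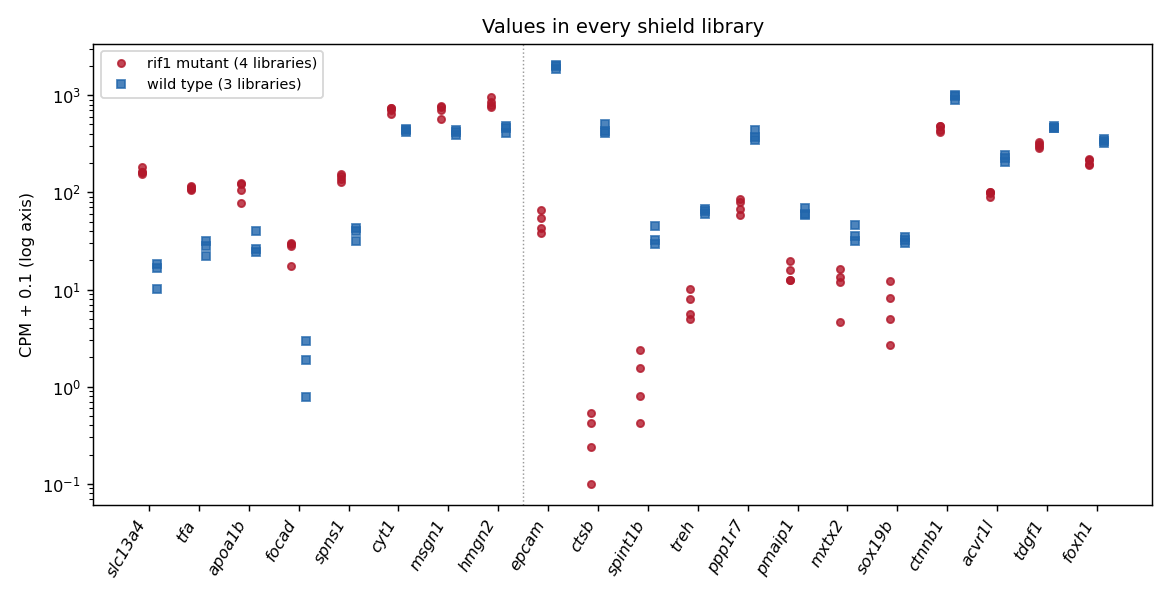
CPM plus 0.1 on a log axis for 20 genes, with red circles for the 4 mutant and blue squares for the 3 wild-type libraries. Genes left of the dotted line were higher in mutants, with slc13a4 at 153 to 181 CPM in mutants; genes right of it were lower, with epcam at 38.2 to 65.8 CPM in mutants. The largest rises and falls were named by a rule that required no overlap.

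Several abundant messages moved by about a factor of 2 with tight replicates. ctnnb1, which encodes beta-catenin, the shared component of Wnt signalling and cadherin junctions, had 418, 443, 476 and 482 CPM in mutants, against 1003, 885 and 979.7 CPM in wild type (-1.07 ± 0.09, edgeR adjusted p = 1.50e-08). skp1, the adaptor of SCF ubiquitin ligases, had 457, 526, 452 and 458 CPM in mutants, against 924, 875 and 1061 CPM in wild type (-1.01 ± 0.09). Both messages were lower in all mutants. The calcium-binding protein gene s100a1 (-1.03 ± 0.09) and the mitochondrial gene higd1a (-1.30 ± 0.10) completed the 5 most abundant falls together with epcam. On the side of the rises, spns1, which encodes a lysosomal lipid transporter, had 136, 127, 148 and 155 CPM in mutants, against 39.6, 43.0 and 31.5 CPM in wild type (1.90 ± 0.16, edgeR adjusted p = 1.78e-08). spata6l (1.42 ± 0.14), tcp11l2 (1.21 ± 0.14) and airim (1.26 ± 0.14), a factor of ribosome maturation, rose as well.

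Nodal signalling, which induces mesoderm and endoderm, had 4 called genes among 17 tested (23.5%, against 9.71% of all genes), all lower in mutants. The median log2 fold change was -0.42, against 0.0025 for all genes tested. The 4 called genes were a co-ligand, a co-receptor and the transducers behind the receptor. foxh1, the transcription factor that binds activated Smads, had 216, 223, 189 and 195 CPM in mutants, against 352, 319 and 339.6 CPM in wild type (-0.71 ± 0.10, edgeR adjusted p = 5.14e-05). tdgf1, the EGF-CFC co-receptor known as Oep, had 329.9, 287, 315 and 297 CPM in mutants, against 477, 463 and 464 CPM in wild type (-0.61 ± 0.09, adjusted p = 9.86e-05). The genotypes did not overlap for either gene, but both were picked among called genes, so this is not separate support. gdf3, the maternal co-ligand Vg1, was at -0.52 ± 0.11 (adjusted p = 0.00334, but 0.126 in a single fit of all 12 groups), and an entry that shares the symbol smad4, ENSDARG00000075226, was at -2.30 ± 0.39 (adjusted p = 0.000303). The ligand gene ndr1 had 6.62, 2.57, 13.2 and 6.79 CPM in mutants, against 10.3, 10.3 and 8.71 CPM in wild type (-0.42 ± 0.49, adjusted p = 0.70), and the antagonist gene lft1 was at -0.17 ± 0.18 (adjusted p = 0.651), so neither differed beyond the spread. ndr2 had too few counts to test. All 4 called genes belong to those whose message falls between dome and bud in wild type, as do 9 of the 17 tested.

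Endoderm genes gave 1 call among 9 tested (11.1%, against 9.71% of all genes). dact2, which promotes the breakdown of Nodal receptors in zebrafish, had 30.4, 17.7, 13.2 and 25.5 CPM in mutants, against 7.31, 6.34 and 7.15 CPM in wild type (1.64 ± 0.36, edgeR adjusted p = 0.00383, but 0.119 in a single fit of all 12 groups). sox17, a transcription factor of endoderm, had 4.18, 2.89, 6.18 and 5.33 CPM in mutants, against 1.54, 1.38 and 0 CPM in wild type; the groups did not overlap, but the counts were low and the test was not passed (2.24 ± 1.02, adjusted p = 0.189). sox32, its upstream regulator, had no count in any mutant library and 0, 0 and 1.69 CPM in wild type, which was too little to test.

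None of the 15 organizer and axial mesoderm genes tested passed the threshold by edgeR or DESeq2, against 9.71% of all genes by edgeR. In a list this small, the lack of calls is not a result about its genes. An unadjusted edgeR p under 0.05 was found for 3, and the share of all genes under that value is not given here. The organizer gene gsc had 107, 136, 99.3 and 97.1 CPM in mutants, against 111, 130.5 and 124 CPM in wild type (-0.14 ± 0.14, edgeR adjusted p = 0.625). The BMP antagonist gene chrd had 448, 626, 542 and 602 CPM in mutants, against 687, 428 and 689 CPM in wild type (-0.12 ± 0.15, adjusted p = 0.732). The groups overlapped for both genes, as they did for noto (0.18 ± 0.15) and tbxta (0.13 ± 0.18), regulators of the notochord. The fitted changes of all 15 ranged between -1.92 and 1.04, and the widest belong to genes with few counts.

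BMP and ventral genes had a median of 0.28 over 29 tested members, of which 79.3% had a fold change above 0, against 50.2% of all genes. Of the 29, 3 were called higher and 1 lower (13.8%, against 9.71% of all genes). acvr1l, which encodes the type I BMP receptor Alk8, had 101, 99.7, 90.4 and 98.1 CPM in mutants, against 204, 243 and 226 CPM in wild type (-1.20 ± 0.12, edgeR adjusted p = 2.17e-07). The other type I receptor called went the opposite way: ENSDARG00000019728, an entry that shares the symbol bmpr1a, had 112, 76.2, 85.9 and 82.8 CPM in mutants, against 46.8, 48.8 and 38.7 CPM in wild type (1.00 ± 0.17, adjusted p = 0.000473). Neither receptor had overlapping groups, which is not separate support for genes picked among the calls. The target genes id3 (0.41 ± 0.11, adjusted p = 0.0166) and id1 (0.27 ± 0.09, adjusted p = 0.0468) were called higher. id3 lost its call without mutant library 2 (0.0512) or 3 (0.0737) or wild-type library 3 (0.125), and id1 without mutant library 3 (0.124) or 4 (0.148) or wild-type library 1 (0.230) or 4 (0.224). Neither was called in a single fit of all 12 groups (0.206 for id3 and 0.594 for id1), nor id1 with library totals (0.120). Of the ligands, an entry with the shared symbol bmp2 had 62.2, 57.3, 64.4 and 61.3 CPM in mutants, against 41.4, 46.2 and 48.0 CPM in wild type, without passing the test (0.44 ± 0.17, adjusted p = 0.119). bmp4 stood at 0.19 ± 0.28, with overlapping groups.

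Adhesion and gastrulation movement genes had 1 called higher, 4 lower and 41 not called among 46 tested, with a median of -0.03. The share called was 10.9%, against 9.71% of all genes tested. The 4 falls include parts of epithelial junctions. Besides epcam these were the E-cadherin gene cdh1, the alpha-catenin gene ctnna1 and the claudin gene cldnd. cdh1 had 184, 188, 177 and 167 CPM in mutants, against 298, 254 and 236 CPM in wild type (-0.55 ± 0.11, edgeR adjusted p = 0.00179). ctnna1, whose product ties beta-catenin to actin, had 181, 192, 207 and 217 CPM in mutants, against 316, 299 and 316 CPM in wild type (-0.64 ± 0.10, adjusted p = 2.00e-04). The messages of the cadherin, alpha-catenin and, from the Wnt list, beta-catenin were each lower in all mutant libraries than in any wild-type library. These genes were picked among called genes, so that separation is not further support. The adhesion list as a whole was called at close to the share of all genes. cldnd was at -0.98 ± 0.16 (adjusted p = 0.000322, but 0.0672 in a single fit of all 12 groups). In the Wnt list, 1 gene was called higher and 1 lower among 34 tested (5.88%, against 9.71% of all genes), with a median of -0.07. The fall was that of ctnnb1, and the rise that of an entry with the shared symbol fzd8, ENSDARG00000038569 (0.95 ± 0.19, adjusted p = 0.00173, but 0.228 in a single fit of all 12 groups).

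Mesoderm and tailbud genes moved both ways, with 3 called higher and 3 lower among 31 tested (19.4%, against 9.71% of all genes). Their median was 0.07. msgn1, a regulator of presomitic mesoderm, had 563, 776, 712 and 759 CPM in mutants, against 439, 392 and 417 CPM in wild type (0.76 ± 0.10, edgeR adjusted p = 3.32e-05). The T-box gene tbx16, which acts beside msgn1 in these cells, had 282, 448, 341 and 389 CPM in mutants, against 497, 509.9 and 592 CPM in wild type (-0.55 ± 0.12, adjusted p = 0.00467). So 2 regulators of the same cells differed in opposite directions. mespaa (1.19 ± 0.27) and tbx16l (0.64 ± 0.16) were also called higher and the apelin receptor gene aplnra (-0.52 ± 0.10) lower. In a single fit of all 12 groups none of these 5 was called (adjusted p = 0.287 for msgn1, 0.0857 for tbx16, 0.475 for mespaa, 0.482 for tbx16l and 0.0975 for aplnra), and tbx16l also lost its call without mutant library 3 (0.0544) or wild-type library 3 (0.0535).

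Among 25 FGF signalling and feedback genes no call was made by edgeR or DESeq2, against 9.71% of all genes called by edgeR. The list is too small for this lack of calls to be a result about its genes. It had 3 at an unadjusted edgeR p under 0.05 and a median of -0.01. The neural plate list gave 1 call among 27 tested (3.70%, against 9.71% of all genes) and a median of 0.04. That call was sox19b, the maternal SoxB1 factor that takes part in genome activation in zebrafish, with 8.06, 2.57, 12.2 and 4.85 CPM in mutants, against 34.8, 32.4 and 29.9 CPM in wild type (-2.21 ± 0.37, edgeR adjusted p = 0.000332). The related gene sox3 had 878, 904, 925 and 1006 CPM in mutants, against 1011, 1067 and 1069 CPM in wild type, a small difference that did not pass the test (-0.18 ± 0.08, adjusted p = 0.187).

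Enveloping layer and epidermis genes had 12 higher and 4 lower among 43 tested (37.2%, against 9.71% of all genes called) and a median of 0.29. In pools of whole embryos, a difference in the number of cells of a type and a difference in RNA per cell cannot be told apart. The keratin genes cyt1, krt92 and krt4 rose. cyt1 had 708, 741, 642 and 738 CPM in mutants, against 414, 434 and 446 CPM in wild type (0.71 ± 0.09, edgeR adjusted p = 8.76e-06). krt4, a standard marker of the layer, had 1675, 1819, 1753 and 1723 CPM in mutants, against 1426, 1418 and 1416 CPM in wild type (0.30 ± 0.07, adjusted p = 0.0100). krt92 (0.64 ± 0.09) and the annexin gene anxa1 (0.69 ± 0.11) lay between them. No mutant library overlapped wild type in any of the 4. All 4 are called genes and 22.2% of all genes tested had no overlap, so this is not further support. Of the 12 rises, 11 were of genes whose message climbs between dome and bud in wild type, as it does for 24 of the 43 tested. None of the 4 falls, led by epcam and spint1b, lies in that class. The single fit of all 12 groups did not call cyt1 (adjusted p = 0.328), krt92 (0.118), anxa1 (0.277) or krt4 (0.781), and krt4 also lost its call without wild-type library 1 (0.0536) or 4 (0.0534). Without mutant library 1 the list had 11 higher and 3 lower, and without mutant library 3 or wild-type library 1 or 4 it had 6 higher and 2 lower.

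Yolk syncytial layer and yolk lipid transport genes had 6 higher and 3 lower among 21 tested (42.9%, against 9.71% of all genes called). Their median was 0.11. The counts were the same without mutant library 1, but 3 were higher without wild-type library 1 or 4. The transferrin gene tfa, an iron carrier, had 107, 106, 114 and 117 CPM in mutants, against 31.2, 27.7 and 22.1 CPM in wild type (2.04 ± 0.17, edgeR adjusted p = 1.88e-08). The apolipoprotein gene apoa1b had 124, 106, 121 and 76.8 CPM in mutants, against 24.4, 40.2 and 25.7 CPM in wild type (1.83 ± 0.21, adjusted p = 1.79e-06). Both encode secreted proteins, and all 6 rises were of genes whose message climbs between dome and bud in wild type, as it does for 15 of the 21 genes tested. Another gene of those 15 was called lower. The falls included mxtx2, the homeobox factor that specifies the yolk syncytial layer in zebrafish, with 16.0, 4.49, 13.2 and 11.8 CPM in mutants, against 35.5, 31.7 and 46.3 CPM in wild type (-1.73 ± 0.32, adjusted p = 0.000953). mxtx2 was thus lower, and tfa and apoa1b higher, in every mutant library.

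Maternal RNA storage, translation and decay genes had 11 lower and 3 higher among 46 tested (30.4%, against 9.71% of all genes called). Their median was -0.38. The counts were the same without mutant library 1, but 7 were lower without wild-type library 1 and 6 without wild-type library 4. xrn1, a cytoplasmic exonuclease, had 109.7, 107, 91.8 and 101 CPM in mutants, against 176, 172 and 158 CPM in wild type (-0.72 ± 0.12, edgeR adjusted p = 0.000376). The deadenylase gene cnot8 had 352, 386, 349.6 and 368 CPM in mutants, against 531, 473 and 708 CPM in wild type (-0.65 ± 0.11). The groups did not overlap for either gene, though both were picked among called genes, so the gap adds no support. The oocyte poly(A)-binding protein gene pabpc1l (-1.33 ± 0.27) and lsm14b (-1.20 ± 0.25), a component of stored messenger particles, fell further, while the decapping enzyme gene dcp2 rose, at 166, 121, 128 and 136 CPM in mutants, against 79.1, 88.2 and 74.9 CPM in wild type (0.77 ± 0.14). Genes of RNA decay were thus found on both sides. Of the 11 falls, 9 were of messages that also fall between dome and bud in wild type, as do 18 of the 46 tested.

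Germ plasm and germ cell genes had 4 lower and 1 higher among 24 tested (20.8%, against 9.71% of all genes called), with a median of -0.47. Of the 24, 19 are messages that fall between dome and bud in wild type. ca15b, a germ plasm message, had 17.7, 27.8, 18.3 and 15.5 CPM in mutants, against 51.3, 67.0 and 61.0 CPM in wild type (-1.59 ± 0.23, edgeR adjusted p = 4.76e-05). The Tudor domain gene tdrd7a had 16.6, 18.9, 25.6 and 21 CPM in mutants, against 39.5, 41.5 and 46.4 CPM in wild type (-1.05 ± 0.23, adjusted p = 0.00476). Without wild-type library 1 or 3, 2 of the list were lower in place of 4: tdrd9 was lost at adjusted p = 0.137 and 0.0792 and buc at 0.0898 and 0.0784. buc also lost its call without mutant library 3 (edgeR adjusted p = 0.0848) or 4 (0.0756) or wild-type library 4 (0.0635). In a single fit of all 12 groups neither was called (edgeR adjusted p = 0.217 for tdrd9 and 0.0532 for buc). The rise, celf1, lost its call without mutant library 2 (0.0509) or wild-type libraries 1 (0.0781) or 4 (0.0870). The ranges of the germ cell markers ddx4 and nanos3 went opposite ways. ddx4, the vasa gene, ranged between 168 and 199 CPM in mutants and between 134 and 164 CPM in wild type, and nanos3 between 12 and 19.7 CPM in mutants and between 21.2 and 25.5 CPM in wild type. Neither is among the called genes of the list, and 22.2% of all genes tested had no overlap between the genotypes.

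Among zygotic genome activators and early zygotic factors, 5 of 39 tested were higher and 6 lower (28.2%, against 9.71% of all genes called). Their median of 0.01 turned to -0.04 with library totals in place of scaling factors. The higher genes numbered 2 without mutant library 3, 3 without wild-type library 3 and 1 without wild-type library 1 or 4. Besides sox19b and tdgf1, the falls included nnr, with 244, 319, 354 and 346 CPM in mutants, against 554, 616 and 789 CPM in wild type (-1.05 ± 0.12, edgeR adjusted p = 5.71e-06), and the zinc finger gene blf, with 26.2, 30.7, 28.4 and 29.6 CPM in mutants, against 56.9, 57.0 and 50.8 CPM in wild type (-0.94 ± 0.19). In both genes the mutants lay below every wild-type library, but they were picked among called genes, so this adds no support. The list of zinc finger genes known only by a high serial number, which are mostly of low abundance, had 59 of 203 entries tested. Of these, 3 were lower and none higher (5.08%, against 9.71% of all genes called). Their median was -0.20, and 5 were lower without mutant library 1. The most abundant of the 3, znf1066, had 87.1, 91.2, 97.7 and 119 CPM in mutants, against 175, 177 and 219 CPM in wild type (-0.95 ± 0.13).

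**Figure D3:**
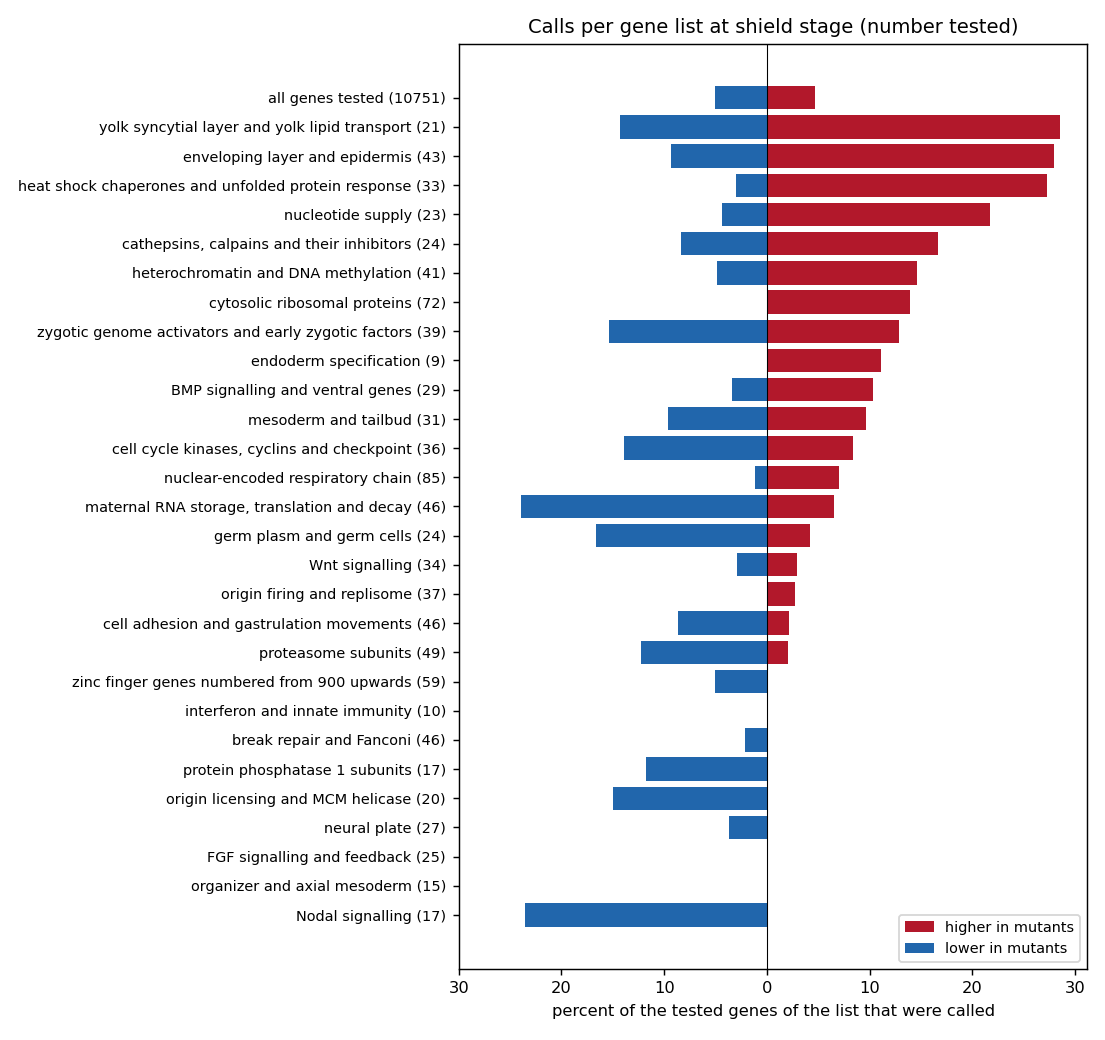
Percent of the tested genes of each list shown that were called higher (red, to the right) or lower (blue, to the left) in mutants at shield stage, with the number tested after the name of the list. All genes tested, at 4.66% higher and 5.05% lower, stand at the top; the longest red bar belongs to the yolk syncytial layer list (6 of 21) and the longest blue bars to the maternal RNA (11 of 46) and Nodal (4 of 17) lists.

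The wild-type course of a gene from dome to bud, taken from libraries that do not enter the shield comparison, divided the results. Genes with a rise of at least 2 log2 units over that interval in wild type numbered 1683 among those tested. Of these, 158 were higher (9.39%) and 41 lower (2.44%) in mutants at shield, with a median log2 fold change of 0.24. Over all genes tested, 4.66% were higher and 5.05% lower. Genes that fell by as much numbered 1608, and 29 of them were higher (1.80%) and 173 lower (10.8%), with a median of -0.45. The 6856 remaining genes tested from dome to bud are called steady here, though they include changes under 2 log2 units. They had 297 higher (4.33%) and 320 lower (4.67%) and a median of 0.01. Genes on the rise in wild type were thus higher in the middle of their distribution in mutants, and genes on the decline were lower.

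This shift was present in each library. Relative to the wild-type mean, the median of the falling genes lay between -0.43 and -0.38 in the 4 mutants, and between -0.04 and 0.10 in wild-type libraries set against the other wild type. For the rising genes it lay between 0.19 and 0.26 in mutants and between -0.07 and 0.07 in wild type. Among falling genes, those with at least 5 CPM in wild-type 1-cell embryos are maternal by that measure. They had 158 lower of 1336 (11.8%, against 5.05% of all genes tested) and a median of -0.47. Falling genes between 1 and 5 CPM at that stage did not follow in their calls, with 6 higher (3.39%) and 2 lower (1.13%) of 177, though their median was -0.37. Falling genes with under 1 CPM at that stage had 13 lower of 95 (13.7%) and a median of -0.32. Their library medians lay between -0.44 and -0.19 in mutants and between -0.15 and 0.09 in wild type. Without mutant library 1 the counts were 190 rising genes higher and 191 falling genes lower. The rising genes called higher numbered 100 without mutant library 3 and 90 without wild-type library 4. The falling genes called lower numbered 109 without wild-type library 3 and 95 without wild-type library 4, and of those under 1 CPM in 1-cell embryos 8 were lower without wild-type library 3.

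**Figure D4:**
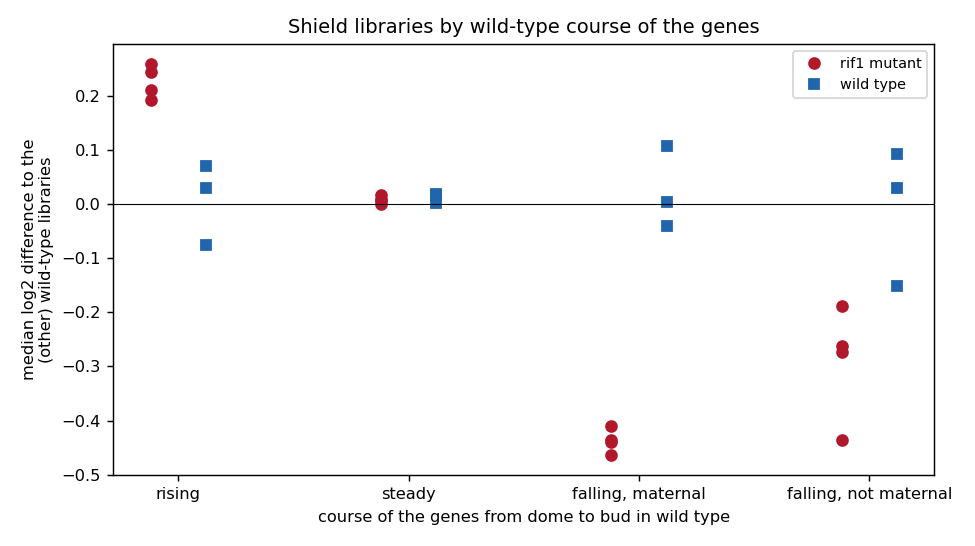
Median log2 difference to the wild-type libraries (vertical axis; each wild-type library against the other wild-type libraries) for genes grouped by their course between dome and bud in wild type (horizontal axis), with a red circle per mutant and a blue square per wild-type library. Rising genes lie at 0.19 to 0.26 in mutants and -0.07 to 0.07 in wild type, and falling genes lie below 0 in every mutant, whether or not they are maternal. Falling genes that are not maternal lie at -0.44 to -0.19 in mutants and -0.15 to 0.09 in wild type, so the gap there is small.

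Replication genes, the field in which Rif1 acts, came next. Origin licensing and the MCM helicase had 3 lower and none higher among 20 tested (15%, against 9.71% of all genes called), with a median of -0.17. All 3 belong to the messages that fall between dome and bud in wild type, as do 7 of the 20 tested. cdt1, which loads the helicase, had 268, 219.7, 251 and 232 CPM in mutants, against 364, 403 and 366 CPM in wild type (-0.64 ± 0.10, edgeR adjusted p = 0.000164). The other 2, mcm3l and an entry with the shared symbol mcm6, each lost their call in 5 of the 7 fits without a library. For mcm3l these were the fits without mutant libraries 2 (adjusted p = 0.0821), 3 (0.10) or 4 (0.106) and wild-type libraries 3 (0.222) or 4 (0.126), and for the mcm6 entry those without mutant libraries 3 (0.0830) or 4 (0.0950) and wild-type libraries 1 (0.117), 3 (0.103) or 4 (0.0922). Origin firing and replisome genes had 1 call among 37 tested, the sliding clamp gene pcna, with 3293, 3002, 2898 and 2891 CPM in mutants, against 2279, 2349 and 2222 CPM in wild type (0.40 ± 0.07, adjusted p = 0.000506). cdt1 was thus lower and pcna higher in all mutants.

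Protein phosphatase 1 subunit genes had 2 lower among 17 tested (11.8%, against 9.71% of all genes called) and a median of 0.08. ppp1r7, which encodes the regulatory subunit Sds22, had 57.7, 84.4, 80.2 and 67.2 CPM in mutants, against 374, 346 and 433 CPM in wild type, or 18.8% of the wild-type mean (-2.41 ± 0.13, edgeR adjusted p = 1.32e-11). Each mutant library lay far below each wild-type library. The inhibitor subunit gene ppp1r2 was at -0.48 ± 0.13 (adjusted p = 0.0152, but 0.0664 without wild-type library 1 and 0.0773 without wild-type library 4).

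Cell cycle kinases, cyclins and checkpoint genes had 3 higher and 5 lower among 36 tested (22.2%, against 9.71% of all genes called), with a median of 0.06. Without mutant library 3 or wild-type library 4 these counts were 1 higher and 3 lower, and without wild-type library 3 none was higher. The maternal cyclin gene ccna1 had 265, 326, 283 and 352 CPM in mutants, against 517, 465 and 654 CPM in wild type (-0.83 ± 0.12, edgeR adjusted p = 3.61e-05). The cyclin E gene ccne1 had 314, 287, 317 and 314 CPM in mutants, against 404, 406 and 427 CPM in wild type (-0.42 ± 0.09). The oocyte kinase gene wee2 was at -1.0 ± 0.23. In each of these the mutants lay below wild type without overlap, which adds no support, since they were picked among called genes. The checkpoint kinase gene atr was scarce, with 0, 0.160, 0 and 0 CPM in mutants, against 6.92, 1.38 and 3.90 CPM in wild type, a ratio of wild type over mutant of 108 with a 95% interval for counting error in mutants of 19.3 to 4254 (adjusted p = 0.0120). cdk1 was higher, at 107, 105, 94.3 and 95.5 CPM in mutants, against 65.0, 55.0 and 72.9 CPM in wild type (0.64 ± 0.15, adjusted p = 0.00789, but 0.0614 without wild-type library 3).

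pmaip1, which encodes the pro-apoptotic protein Noxa, had 15.7, 19.6, 12.5 and 12.4 CPM in mutants, against 60.4, 58.3 and 68.9 CPM in wild type (-2.05 ± 0.22, edgeR adjusted p = 1.21e-06). The cyclin G gene ccng1 had 673, 653, 819 and 790.2 CPM in mutants, against 1138, 1079 and 1275 CPM in wild type (-0.67 ± 0.09, adjusted p = 3.61e-05). Both were lower in 4 of 4 mutants. The ubiquitin ligase gene mdm2 and the cyclin-dependent kinase inhibitor gene cdkn1a did not pass the test: mdm2 was at -0.32 ± 0.12 (adjusted p = 0.117), and cdkn1a had 1.87, 2.09, 1.97 and 0 CPM in mutants, against 0.898, 0.138 and 1.04 CPM in wild type (1.08 ± 1.51, adjusted p = 0.756). Break repair and Fanconi genes had 1 call among 46 tested (2.17%, against 9.71% of all genes), the histone variant gene h2ax. h2ax overlapped between the groups and lost its call without mutant libraries 3 (0.0751) or 4 (0.0717) or wild-type libraries 1 (0.144) or 3 (0.125), and in a single fit of all 12 groups (0.0769).

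Heterochromatin and DNA methylation genes had 6 higher and 2 lower among 41 tested (19.5%, against 9.71% of all genes called), with a median of 0.14. Only 3 were higher without mutant library 3 or wild-type library 1 or 4. The nucleosome-binding protein gene hmgn2 had 856, 749.8, 952 and 786 CPM in mutants, against 463, 486 and 404 CPM in wild type (0.89 ± 0.10, edgeR adjusted p = 1.49e-06). hmga1a, an architectural protein gene and among the most abundant messages of the embryo, had 13685, 13674, 12833 and 12480.0 CPM in mutants, against 10277, 10466 and 10096 CPM in wild type (0.36 ± 0.06, adjusted p = 2.00e-04). The histone methyltransferase gene ehmt1 had 23, 28.7, 27.5 and 22.8 CPM in mutants, against 42.8, 64.3 and 51.0 CPM in wild type (-1.05 ± 0.21, adjusted p = 0.00230). hmgn2 and hmga1a were therefore higher and ehmt1 lower. Each was without overlap, but they were picked among called genes, so this adds no support. The nucleotide supply list had 5 higher and 1 lower among 23 tested (26.1%, against 9.71% of all genes called), with a median of 0.02. It had 4 higher and none lower without mutant library 1. Without mutant library 3 or wild-type library 1, 3 were higher, and without wild-type library 4, 2 were, since dck (adjusted p = 0.117), paics (0.0866) and ENSDARG00000029524 (0.189), an entry that shares the symbol impdh1, lost their calls. Beside the rrm2 entry, cad, which carries the entry step of pyrimidine synthesis, had 185, 195, 194 and 202 CPM in mutants, against 125, 119 and 127 CPM in wild type (0.65 ± 0.11, adjusted p = 0.00045).

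Heat shock chaperones and the unfolded protein response had 9 higher and 1 lower among 33 tested (30.3%, against 9.71% of all genes called). Their median was 0.36. Without mutant library 1 the counts were 10 higher and 1 lower. The higher genes numbered 6 without wild-type library 1, 7 without mutant library 3 or wild-type library 3, and 8 without wild-type library 4. The mitochondrial co-chaperone gene hspe1 had 352, 361, 337 and 331 CPM in mutants, against 218, 127 and 208 CPM in wild type (0.91 ± 0.14, edgeR adjusted p = 0.000111). dnajb1b, a partner of Hsp70, had 244, 203, 207 and 187 CPM in mutants, against 117, 134 and 130.4 CPM in wild type (0.73 ± 0.12, adjusted p = 0.000303). The calreticulin gene calr3a (0.68 ± 0.12) and hspa14 (0.63 ± 0.11) rose by similar amounts. The small heat shock protein gene hspb1, at 9371 to 10062 CPM in mutants and 6908 to 7888 CPM in wild type, was at 0.38 ± 0.06 (adjusted p = 0.000209, but 0.476 in a single fit of all 12 groups).

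Cathepsins, calpains and their inhibitors had 4 higher and 2 lower among 24 tested (25%, against 9.71% of all genes called), with a median of 0.06. Only 2 were higher without mutant library 3 or wild-type library 4. Against the loss of ctsb, the dipeptidyl peptidase gene ctsc had 1763, 2057, 2098 and 2053 CPM in mutants, against 1295, 1141 and 1243 CPM in wild type (0.70 ± 0.08, edgeR adjusted p = 2.93e-06). The entries for the calpain small subunit split. capns1 had 129.8, 163, 164 and 151 CPM in mutants, against 309, 351 and 366 CPM in wild type (-1.17 ± 0.11, adjusted p = 1.56e-07), whereas capns1b had 167, 126, 166 and 144 CPM in mutants, against 100.4, 91.1 and 73.6 CPM in wild type (0.77 ± 0.14, adjusted p = 0.000946). How reads shared between such copies were counted is not given in the sources used here. The interferon and innate immunity list had 10 tested genes and no call by edgeR or DESeq2, against 9.71% of all genes called by edgeR. None was at an unadjusted edgeR p under 0.05, but with so few genes this is not a result about the list.

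The shield calls repeated in part at other stages, each tested within its own libraries. At dome, the stage before, 320 of the 1044 shield calls were also called in the same direction, which is 30.7% of the shield calls and 16.2% of the 1979 dome calls (17% of the genes tested at dome), and 78 (7.47% of the shield calls) were called in the opposite direction. At bud, the stage after, 158 were shared, 15.1% of the shield calls and 27.1% of the 584 bud calls (5.51% of the genes tested at bud). The share of shield calls found in the same direction was 12.5% at the 1-cell stage, 19.3% at the 256-cell stage and 14.6% at 24 hpf, or 10.6%, 13.4% and 14.0% of the calls made there, which were 10.2%, 13.5% and 8.64% of the genes tested. In all, 459 shield calls (44.0%) were called in that direction at no other stage, counting genes that were not tested there, such as csrp3. Only 8 genes were called in the shield direction at all 5 other stages: rif1, ppp1r7, pmaip1, spint1b, txnl1 and ENSDARG00000110346, which were lower, and mdh1 and ENSDARG00000102909, which were higher. These genes follow from that count and not from the rule for naming genes.

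Whether the genotype effect itself changed between stages was tested as an interaction. The parents of the libraries at each stage are not in the labels. A change with stage and a difference between families therefore cannot be told apart. From dome to shield it changed for 892 of 13053 genes (6.83%), 262 towards higher (2.01%) and 630 towards lower (4.83%) in mutants. ctsb gave the smallest p: its log2 fold change was 1.36 at dome and -10.83 at shield, a change of -12.21 ± 0.34 (edgeR adjusted p = 1.83e-19). With all libraries scaled together, mutants averaged 362 CPM of ctsb at dome and 0.243 CPM at shield. Wild type averaged 142 CPM at dome and 500.02 CPM at shield, so the message was abundant in the mutants at dome. ctsb was also lower in mutants at the 256-cell stage (-7.30), at bud (-7.83) and at 24 hpf (-7.73). At the 1-cell stage its difference did not pass the test (-1.44 ± 1.74, edgeR adjusted p = 0.663). There the libraries of a group were far apart, with 74.4 CPM in mutants (SD 123) and 206 CPM in wild type (SD 147). Only at dome was it higher in mutants. Of the 4 Nodal genes called at shield, 2 were higher at dome. tdgf1 was at 0.51 at dome and changed by -1.13 ± 0.14 (adjusted p = 9.47e-07), and foxh1 was at 0.37 and changed by -1.09 ± 0.15 (adjusted p = 1.09e-05). The smad4 entry ENSDARG00000075226 was at -0.30 at dome and changed by -2.01 ± 0.38 (adjusted p = 0.00065). gdf3 was already lower at dome, at -0.44, and its estimated change of -0.09 ± 0.15 did not pass the test (adjusted p = 0.821). ctnnb1, skp1 and ctnna1 changed by -1.04 ± 0.15, -1.03 ± 0.13 and -1.15 ± 0.15, and the first 2 of these were at -0.04 and 0.01 at dome. ctnna1 was called higher in mutants at dome (0.50 ± 0.11, edgeR adjusted p = 0.00176). spns1 changed upwards by 2.21 ± 0.19 (adjusted p = 1.94e-09), with 179 CPM at dome and 154 CPM at shield in mutants, and 226 CPM at dome and 42.7 CPM at shield in wild type. The otolith matrix protein gene stm changed by -1.79 ± 0.14 (adjusted p = 1.99e-10).

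From shield to bud the effect changed for 338 of 12715 genes (2.66%), 155 towards higher (1.22%) and 183 towards lower (1.44%), and for 211 without wild-type shield library 4. epcam changed by 4.43 ± 0.20 (edgeR adjusted p = 2.01e-14): it stood at -5.28 at shield and -0.89 at bud, but at -4.23 at 24 hpf. tfa changed by -1.80 ± 0.17 (adjusted p = 1.75e-08) and was at 0.20 at bud, where mutants averaged 780 CPM and wild type 669 CPM. At 24 hpf tfa was higher in mutants again (0.72 ± 0.08, adjusted p = 1.47e-07), at 2219 CPM in mutants and 1355 CPM in wild type. slc13a4 changed by -1.86 ± 0.25 (adjusted p = 2.62e-05) and stayed higher at bud, at 1.57. s100a1 changed by 1.72 ± 0.14 (adjusted p = 2.70e-09), since it was higher in mutants at bud (0.65). For spint1b the estimated change was -0.04 from dome to shield and -0.02 from shield to bud, both with an edgeR adjusted p of 1, and the gene was at -4.84 at dome, -4.86 at shield and -4.91 at bud. The calls named for these changes between stages held under each of the 17 to 19 alternatives run for them.

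**Figure D5:**
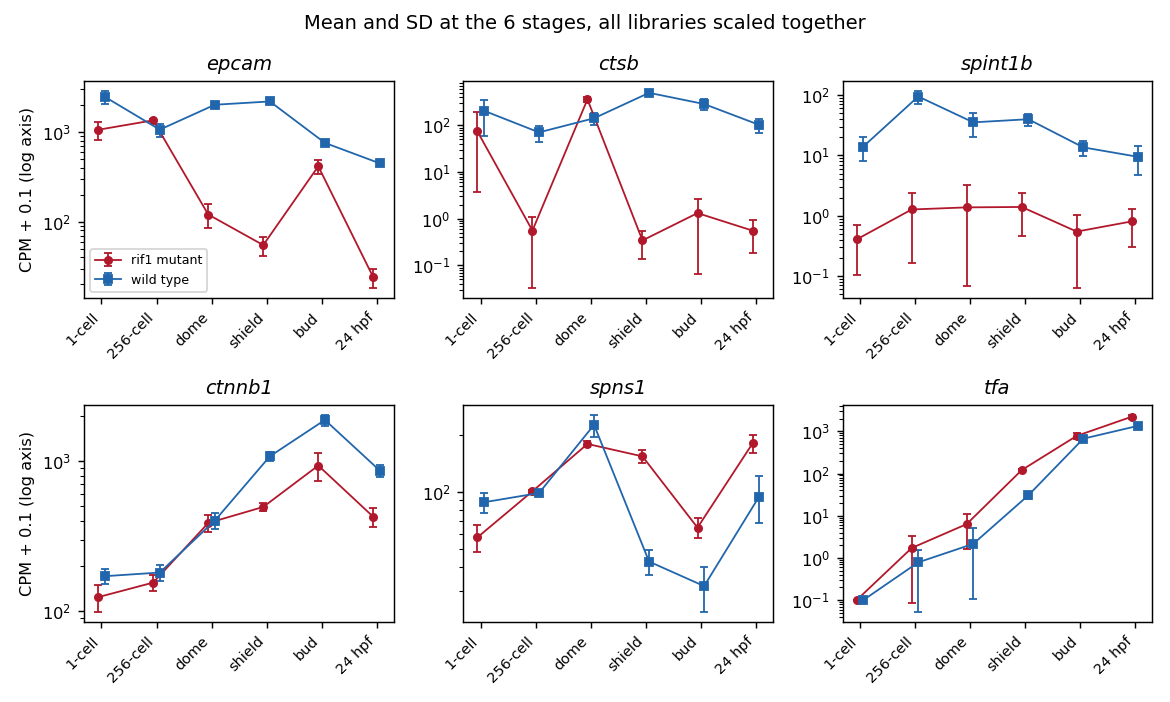
Mean CPM plus 0.1 on a log axis at the 6 stages for 6 genes, in mutants (red circles) and wild type (blue squares), with all libraries scaled together; bars are SD over 3 or 4 libraries, cut short where they would pass 0. epcam and ctsb change their gap between stages, spint1b keeps it, ctnnb1 and spns1 part at shield, and tfa stands higher in mutants at shield and at 24 hpf, with a smaller gap at bud.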

How the data were processed

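The 43 libraries are QuantSeq 3′ libraries of whole-embryo pools, read as 75-base single ends per the labels' protocols. The deposited table holds whole-number counts per gene; STAR, HTSeq and GRCz11 are named per the submitters' processing notes, while versions, annotation, strand setting and any use of molecular identifiers are not given in the sources used here. The 31877 Ensembl entries were given symbols from a name table (28877 matched); 6086 share a symbol and are printed by ID as uncertain. Counts without a symbol were at most 1.82% of a library and stayed in.

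Counts were tested with edgeR 4.0.16 (R 4.3.3): genes passing filterByExpr, TMM scaling, robust quasi-likelihood test, Benjamini-Hochberg adjustment over all genes tested, threshold 0.05. Only the 7 shield libraries entered the main fit; changes between stages were interaction terms over the libraries of both stages. CPM are TMM-scaled within the shield libraries. SE is the log2 fold change divided by the square root of F. On data simulated from the shield means with 200 changed genes, 60% of those changed 2-fold and 79% of those changed 4-fold were recovered, with 7 false calls among 10152 genes. The changed genes were drawn above a minimum expected count, and no deviation of a whole library was simulated. These figures therefore need not hold for genes of few counts or for the real libraries.

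Named genes were the 12 largest rises and falls (at least 1 log2 unit, 5 CPM in the higher group, no overlap), the 5 most abundant changes of that size each way, up to 5 called genes per list by p, landmark genes and the 3 smallest p per interaction. The members and the 29 gene lists were chosen with earlier results of these data known. Genes named from a list by p were picked among called genes, so their lack of overlap between the genotypes is not separate support. One gene, and the count of the list that holds it, are not reported here. Wild-type course classes used wild-type dome and bud libraries and a change of 2 log2 units. Alternatives were other scaling, other filters, DESeq2 1.42.0, a fit of all 12 groups, a replicate block, and fits without 1 library at a time. Leaving out single libraries for the lists and course classes was chosen after seeing the data. A check of chromosome position was void, since under 80% of the genes tested could be placed (78.1%).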

Additional observations from a re-analysis of the deposited data

Results flagged for a closer look

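In 9 of 133 groups of 4 mutant libraries examined, 1 library stood apart from the others by Dixon's criterion, which chance meets in about 1 group in 20. Mutant library 2 was above the other mutants for tpm4 (3.37 CPM), skp1 (526 CPM) and buc (31.3 CPM). It was below them for ccne1 (287 CPM) and the fgf8 entry ENSDARG00000003399 (3.21 CPM). Mutant library 1 was below the others for hspa14 (203 CPM) and ctsc (1763 CPM). Mutant library 4 was below the others for focad (17.5 CPM) and for cdkn1a, with 0 CPM. For all of these except cdkn1a and the fgf8 entry the genotypes did not overlap. The genes without overlap are called genes, so that gap is not separate support.

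The genotype effect differed between stages by the interaction test (edgeR quasi-likelihood) for 6 genes named for it. From dome to shield the log2 effect changed by -12.21 for ctsb, by -1.79 for stm and by 2.21 for spns1. From shield to bud it changed by 4.43 for epcam, by 1.72 for s100a1 and by -1.80 for tfa.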

How the results depend on the processing

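The 1044 shield calls ranged between 606 and 1136 when single libraries were left out, with 622 without wild-type library 1 and 606 without wild-type library 4. The 444 calls of at least 1 log2 unit ranged between 296 and 464, and became 792 in a single fit of all 12 groups. The changes of the effect ranged between 667 and 998 calls from dome to shield and between 211 and 370 from shield to bud. No other alternative moved these counts by over 1.5 times; DESeq2 called 1181 genes at shield, 1006 of them shared with edgeR. Same-numbered libraries of the genotypes did not visibly deviate together (correlations 0.0013, 0.018 and -0.0138, against -0.0538 to 0.0665 for other pairs). Pairing by number was thus not seen, but so few pairs cannot exclude it. With a replicate block 1034 genes were called, 852 of them shared. Of 125 named called genes, 76 kept their call in each alternative run, and 14 lost it only in the fit of all 12 groups.

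Changes of direction came only from genes not called. tbxta ranged between -0.0113 and 0.27 and bmp4 between -0.13 and 0.44 over the left-out libraries. The wnt8a entry ENSDARG00000052910 ranged between -0.19 and 0.21, with -0.0385 by library totals and -0.0272 in the fit of all 12 groups. The fgf8 entry ENSDARG00000003399 ranged between -0.22 and 0.23, with 0.23 under the replicate block. The course medians became 0.18 for rising and -0.31 for falling genes at 1 log2 unit, and 0.19 and -0.51 by library totals. Depth limits genes of a few CPM such as sox17, ndr1 and cdkn1a, where the error of the fold change is large.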

Other observations

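Cytosolic ribosomal protein genes had 10 higher and none lower among 72 tested (13.9%, against 9.71% of all genes called). Their median was 0.16, with 86.1% of members above 0. The higher genes numbered 23 without mutant library 1, but 5, 3 and 3 without mutant libraries 2, 3 and 4, and 1, 4 and 5 without wild-type libraries 1, 3 and 4. rpl35 had 469, 379.7, 378 and 358 CPM in mutants, against 262, 324 and 286 CPM in wild type (0.45 ± 0.11, edgeR adjusted p = 0.0106, but 0.0920 without wild-type library 1). Of the 72 genes, 61 rise between dome and bud in wild type. Proteasome subunit genes had 6 lower and 1 higher among 49 tested (14.3%, against 9.71% of all genes called), with a median of 0.06. Only 3 were lower without wild-type library 1. psmd9, an assembly chaperone of the regulatory particle, had 11.2, 12.7, 8.57 and 9.05 CPM in mutants, against 47.4, 26.6 and 34.7 CPM in wild type (-1.80 ± 0.28, adjusted p = 0.000156). psmc6, a base ATPase, was at -0.64 ± 0.13 and psmd12, a lid subunit, at -0.65 ± 0.15. Nuclear-encoded respiratory chain genes had 6 higher and 1 lower among 85 tested (8.24% called, against 9.71% of all genes), with a median of 0.09, and 3 higher without wild-type library 1. ndufa4 had 714, 798, 805 and 752 CPM in mutants, against 569, 526 and 539 CPM in wild type (0.49 ± 0.09, adjusted p = 0.000433).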
